A study of Mus musculus with 10 samples.

Results

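A set of 10 genes that carry glucose into the cell, break it down to lactate and export the lactate was followed in the epididymal white adipose tissue (eWAT, the fat pad along the epididymis) of 10 mice. They are *Slc2a1*, *Hk2*, *Pfkp*, *Pfkfb3*, *Aldoa*, *Pgk1*, *Eno1*, *Ldha*, *Pdk1* and *Slc16a3*. Every probe of the array that carries the name of one of these genes and is no control was taken, which gave 15 of 55681 probes for 10 of 34797 gene names. The genes were chosen as known targets of hypoxia-inducible factor (HIF). HIF activity itself was not measured on these arrays.

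All 10 mice belonged to 1 group. They were adult male wildtype C57BL/6JOlaHsd mice (C57BL/6J in the strain field of the labels) that ate a purified low fat diet for 3 weeks and then a high-fat diet for 12 weeks, both at 29 °C, which is thermoneutral for mice. They then received desferrioxamine (DFO), an iron chelator, at 100 mg/kg body weight once a day for 5 days, and were killed on day 6 after 2 h without food. The RNA of each mouse was labelled with the dye Cy5 and measured on its own 2-colour array against a pool labelled with Cy3. The labels say that this pool held RNA of all mice of a wider study, those of this group and of a control group included. The control arrays were not analysed here, so the values below show how the mice of this group differ from each other and from the pool, and not what DFO did.

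HIF is a transcription factor whose alpha subunits are marked for breakdown by prolyl hydroxylases, enzymes that need oxygen, iron and oxoglutarate. When oxygen is short or iron is bound by a chelator, the alpha subunits last longer and bind a short DNA motif near their target genes. Classical targets are the glucose transporter GLUT1, hexokinase 2, most enzymes of glycolysis, lactate dehydrogenase A, the lactate exporter MCT4 and pyruvate dehydrogenase kinase 1, which keeps pyruvate out of the mitochondria. In fat, adipocytes take up glucose mainly through the insulin-regulated transporter GLUT4, while macrophages and other cells that enter the tissue use GLUT1.

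Values are log2 ratios of Cy5 over Cy3, so 1 unit is a doubling against the pool. The median spot gave a Cy5 signal of 54.8 to 81.3 over the arrays, against a local background of 32 to 37, and no spot was saturated. All 15 probes were well above background (a flag of the scanner software) in both dyes on all 10 arrays. On the first principal component of 27696 expressed probes, with the 10 genes left out, mice 4, 5, 6 and 7 lay on one side (scores of 0.281 to 0.448) and the other 6 on the other (-0.366 to -0.137), and this component held 75.1% of the variance. The mice have 1 label and this division comes from the data, so it is used only to say which mice were high or low. The arrays lay in pairs on 5 slides. Slides 2 and 4 each held 1 mouse of both sides, mice 3 and 4 and mice 8 and 7, and give differences within a slide.

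The markers of the tissue moved along the same component. The mean log2 ratio of 12 adipocyte genes lay between -2.02 and -1.13 in mice 4 to 7 and between -0.17 and 0.52 in the other 6. All 12 were expressed, and of the 11 with a value in every mouse 10 were lower without overlap in mice 4 to 7 (5 under median centring, a scaling explained below) and 1, *Cd36*, was higher. *Adipoq*, which encodes adiponectin, ran from -2.78 to -1.63 in mice 4 to 7 and from -0.08 to 0.81 in the others. The mean of 12 macrophage genes lay between 0.67 and 0.92 in mice 4 to 7 and between -1.09 and -0.07 in the others, with 11 genes higher under every scaling and 1, *Cd163*, lower (overlapping in the deposited values). The endothelial list, 8 of 8 genes expressed, ran from -0.91 to -0.60 against -0.07 to 0.29, and the mesothelial list, 7 of 7, from -1.43 to -1.01 against -0.49 to 0.36. The endothelial genes lower without overlap went from 7 to 1 under median centring, and the mesothelial ones from 4 to 1. The fibroblast list, 7 of 7, overlapped (-0.20 to 0.12 against -0.28 to 0.14). Of the smaller lists, red blood cell genes (-1.63 to -0.99 against -0.66 to 0.39) and lymphocyte genes (-0.41 to -0.29 against 0.03 to 0.29) were lower in mice 4 to 7 by their means. Without overlap, 3 red blood cell genes were lower (0 under median centring) and 2 lymphocyte genes (1). Muscle (-1.01 to -0.21 against -0.38 to 0.60), neutrophil (-0.65 to -0.07 against -0.57 to 0.65), sperm (-2.79 to -2.27 against -2.67 to -1.02) and epididymis genes (-0.46 to -0.35 against -0.39 to 0.20) overlapped. In such bulk tissue, fewer cells of a type and less RNA per cell cannot be told apart. These values stand beside every gene result below, and their part in those results was not tested.

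The 10 genes did not move as a set. In mice 4 to 7, *Slc2a1*, *Pgk1* and *Pdk1* were higher than in all other mice, *Hk2*, *Pfkfb3* and, by less than the spread of repeated spots, *Eno1* were lower than in all other mice, and *Pfkp*, *Aldoa*, *Ldha* and *Slc16a3* overlapped. *Slc2a1*, *Pgk1*, *Pdk1* and *Pfkfb3* kept this place under all 4 other scalings tried, while *Hk2* overlapped under 1 of them (median centring), *Eno1* under all 4, and *Aldoa* was higher in 1 (the deposited normalized values). Median centring shifts each array as a whole and leaves out loess, a correction that follows the brightness of the spots. The deposited values, counted here as 1 of the 4 scalings, follow the Cy5 signal and are no ratios to the pool. Among all expressed probes with complete values, 17.9% were higher and 21.3% lower without overlap, so that 6 of 10 genes stood against 39.2% of probes. The genes are taken here by their brightest probe, while the share is over all expressed probes, dim ones included. Of the 15 probes of the 10 genes, 3 were higher, 4 lower and 8 overlapped. For 7 of the 10 genes log2 Cy5 varied more between mice than log2 Cy3 of the pool varied between arrays (Pitman-Morgan test of paired variances, adjusted over 25044 probes at 0.05). The share of all tested probes was 59.7%, so a count of 7 is near the background under this processing. Of the 15 probes of the 10 genes, 9 passed. The genes past this test were *Slc2a1*, *Hk2*, *Pfkfb3*, *Pgk1*, *Ldha*, *Pdk1* and *Slc16a3*. Without mice 4 to 7 it was 4 of 10 (*Hk2*, *Pfkfb3*, *Pgk1* and *Slc16a3*), against 14.2% of all probes. The slide passed limma's moderated F test for no probe (0.0%), and no probe of the 10 genes had an unadjusted p under 0.05, against 4.1% of all probes. Slides 2 and 4 each held a mouse of either side, so the difference between the sides enters the spread within slides that this test uses. No conclusion on the slide is drawn from the lack of calls.

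**Figure D1:**
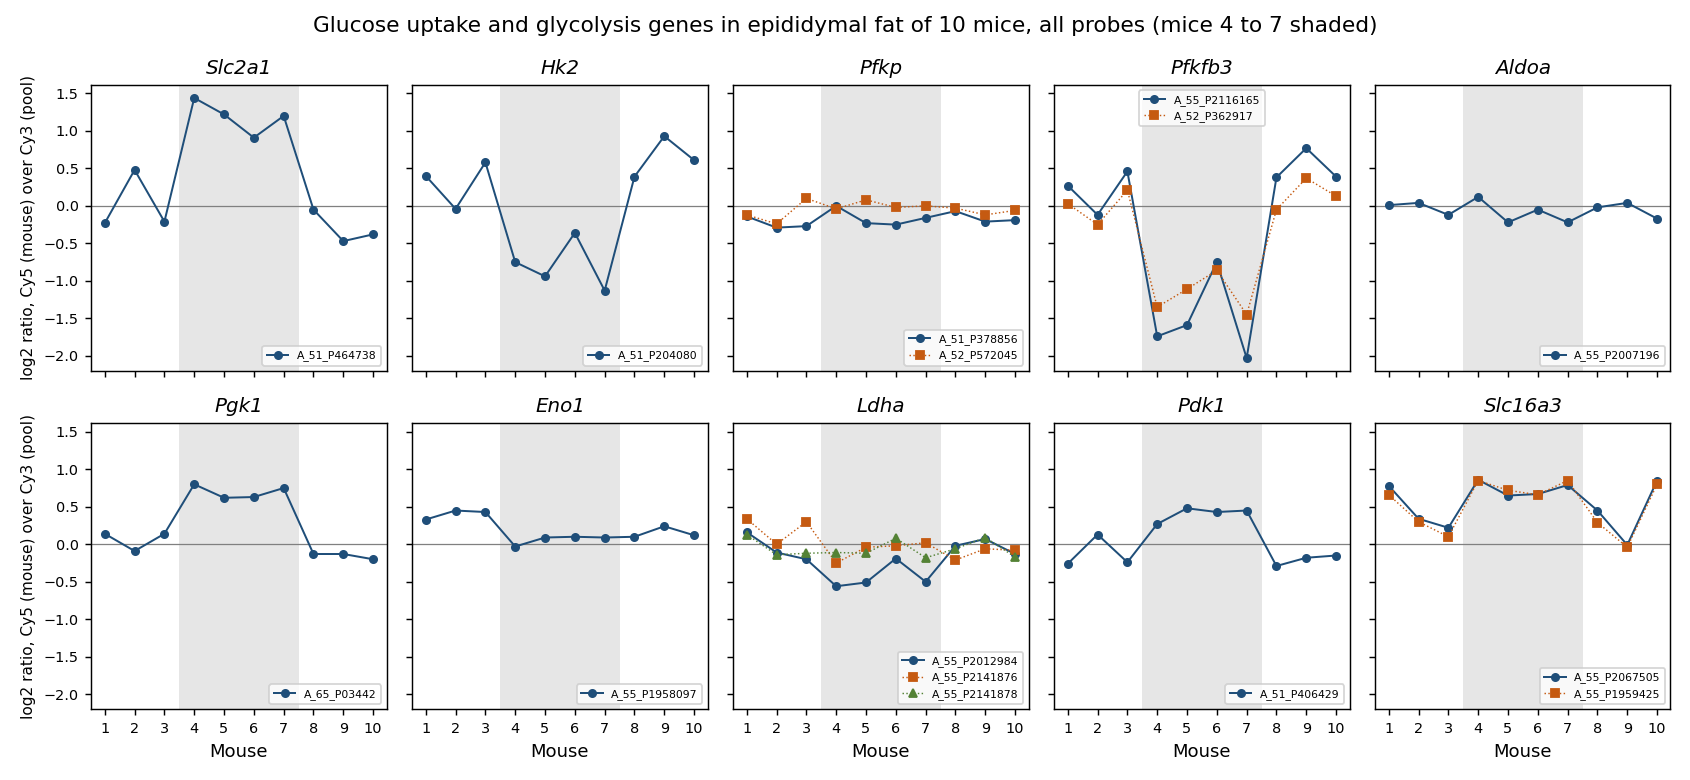
Log2 ratio of Cy5 over the Cy3 pool (vertical axis) in mice 1 to 10 (horizontal axis) for each of the 10 genes, with 1 symbol for each probe and lines only to guide the eye; mice 4 to 7 are shaded. *Slc2a1* reached 0.91 to 1.44 in the shaded mice, where *Pfkfb3* lay between -2.03 and -0.75, and *Pfkp* overlapped the others.

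Glucose enters the cell through the facilitative transporter GLUT1, the product of *Slc2a1*. Its probe, at chr4:118809864-118809923 of build mm9, gave -0.23, 0.48, -0.21, 1.44, 1.22, 0.91, 1.20, -0.05, -0.47 and -0.38 in mice 1 to 10. Mice 4 to 7 were the 4 highest, and mouse 2 came next. The mean was 0.39 ± 0.75 (SD, n = 10), and the highest mouse was 3.78-fold over the lowest. The SD of log2 Cy5 was 8.71 times that of Cy3 (adjusted p = 1.35e-05, Pitman-Morgan test over all probes). On slide 2 mouse 4 was 1.66 above mouse 3, and on slide 4 mouse 7 was 1.25 above mouse 8. Without mice 4 to 7 the gene no longer passed the test (adjusted p = 0.0676).

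The adipocyte transporter GLUT4, encoded by *Slc2a4*, ran the other way. It was at 0.32, -0.11, 0.29, -2.38, -2.31, -1.71, -2.65, 0.65, 0.91 and 0.89 in mice 1 to 10, an SD of 1.47 and the widest spread among the 26 expressed genes of the pathway outside the 10. The SD of its log2 Cy5 was 34.6 times that of log2 Cy3 (adjusted p = 1.43e-08). The mice with the highest GLUT1 transcript were thus those with the lowest GLUT4 transcript. *Slc2a3*, for GLUT3, overlapped between mice 4 to 7 (-0.28 to 0.04) and the others (-0.19 to 0.46), as did *Slc2a2*, for GLUT2 of liver and islets (-0.34 to -0.14 against -0.17 to 0.29), which was above background on only 5 arrays.

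Hexokinases trap glucose by phosphorylating it. *Hk2*, the insulin-responsive hexokinase of muscle and fat, was measured by 1 probe at chr6:82675056-82675115 of mm9. It gave 0.40, -0.04, 0.58, -0.75, -0.94, -0.36, -1.13, 0.39, 0.93 and 0.61 in mice 1 to 10. Mice 4 to 7 were the 4 lowest, though not without overlap under median centring, and the highest mouse, mouse 9, was 4.16-fold over the lowest, mouse 7. The mean was -0.03 ± 0.73 (SD, n = 10), and the SD of log2 Cy5 was 15.2 times that of Cy3 (adjusted p = 2.53e-07). The differences within slides were -1.33 (mouse 4 minus mouse 3) and -1.52 (mouse 7 minus mouse 8). Among the 6 other mice *Hk2* still passed the test (adjusted p = 0.0124).

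*Hk3* and *Hk1* differed from *Hk2* in direction. *Hk3*, a hexokinase of myeloid cells, lay between 0.95 and 1.37 in mice 4 to 7 and between -1.74 and -0.40 in the others (SD 1.18, adjusted p = 1.74e-07). *Hk1*, found in most cells, was higher in mice 4 to 7 by all 3 of its expressed probes, of which 2 passed the variance test. The brightest ran from -0.02 to 0.17 against -0.28 to -0.10 and did not pass (adjusted p = 0.0744), and the probe with the largest difference ran from 0.48 to 0.71 against -0.08 to 0.23 (adjusted p = 6.12e-05).

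Phosphofructokinase sets the pace of glycolysis, and fructose 2,6-bisphosphate, made and broken down by the PFKFB enzymes, is its strongest activator. *Pfkp*, the platelet form of phosphofructokinase, had the smallest SD of the 10 genes. Its brighter probe, at chr13:6581718-6583872 of mm9, is 60 bases long and its place spans 2155 bases of the genome, so that it crosses an intron. It lay between -0.29 and 0.00 in the 10 mice, with a mean of -0.18 ± 0.09 (SD, n = 10), and did not pass the test (adjusted p = 0.111). The other probe, at chr13:6579124-6579183, ran from -0.24 to 0.10 and did not pass either (adjusted p = 0.579). The liver and muscle forms *Pfkl* (-0.65 to -0.10 in mice 4 to 7, 0.10 to 0.44 in the others) and *Pfkm* (-0.25 to -0.17 against 0.20 to 0.40) were lower in mice 4 to 7, and both overlapped under median centring.

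*Pfkfb3*, the PFKFB enzyme with the strongest bias towards making the activator and a gene induced by hypoxia in many cells, had the widest spread of the 10 genes. Its brighter probe, at chr2:11393453-11393512 of mm9, gave 0.27, -0.12, 0.46, -1.74, -1.59, -0.75, -2.03, 0.38, 0.77 and 0.39 in mice 1 to 10. Mice 4 to 7 were the 4 lowest, mouse 7 being 6.98-fold under mouse 9. The mean was -0.39 ± 1.05 (SD, n = 10) and the SD of log2 Cy5 was 14.6 times that of Cy3 (adjusted p = 6.48e-08). Within slides the differences were -2.19 (mouse 4 minus mouse 3) and -2.41 (mouse 7 minus mouse 8). A second probe from another stretch of the transcript, at chr2:11404189-11405602 and crossing an intron, gave 0.03, -0.25, 0.21, -1.35, -1.11, -0.86, -1.45, -0.05, 0.37 and 0.13. Both probes put mice 4 to 7 under all other mice, the second with a smaller spread (SD 0.69, adjusted p = 1.16e-06).

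The junction-crossing probes of *Pfkp* and *Pfkfb3* are shown because they cannot bind genomic DNA along their whole length. They are written 5′ to 3′ as the scanner files give them.
Pfkp probe A_51_P378856: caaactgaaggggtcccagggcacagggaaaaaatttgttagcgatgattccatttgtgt
Pfkfb3 probe A_52_P362917: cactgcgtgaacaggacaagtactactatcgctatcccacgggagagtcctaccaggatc

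The 4 PFKFB genes split. *Pfkfb1*, known from liver and muscle, was lower in mice 4 to 7 (-1.50 to -0.58 against 0.05 to 0.53, SD 0.75, adjusted p = 1.17e-06), as *Pfkfb3* was. *Pfkfb4*, which is also induced by hypoxia, was higher (0.64 to 0.99 against -0.72 to 0.05, SD 0.67, adjusted p = 5.14e-07). *Pfkfb2*, the heart form, overlapped and did not pass the test (adjusted p = 0.681).

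**Figure D2:**
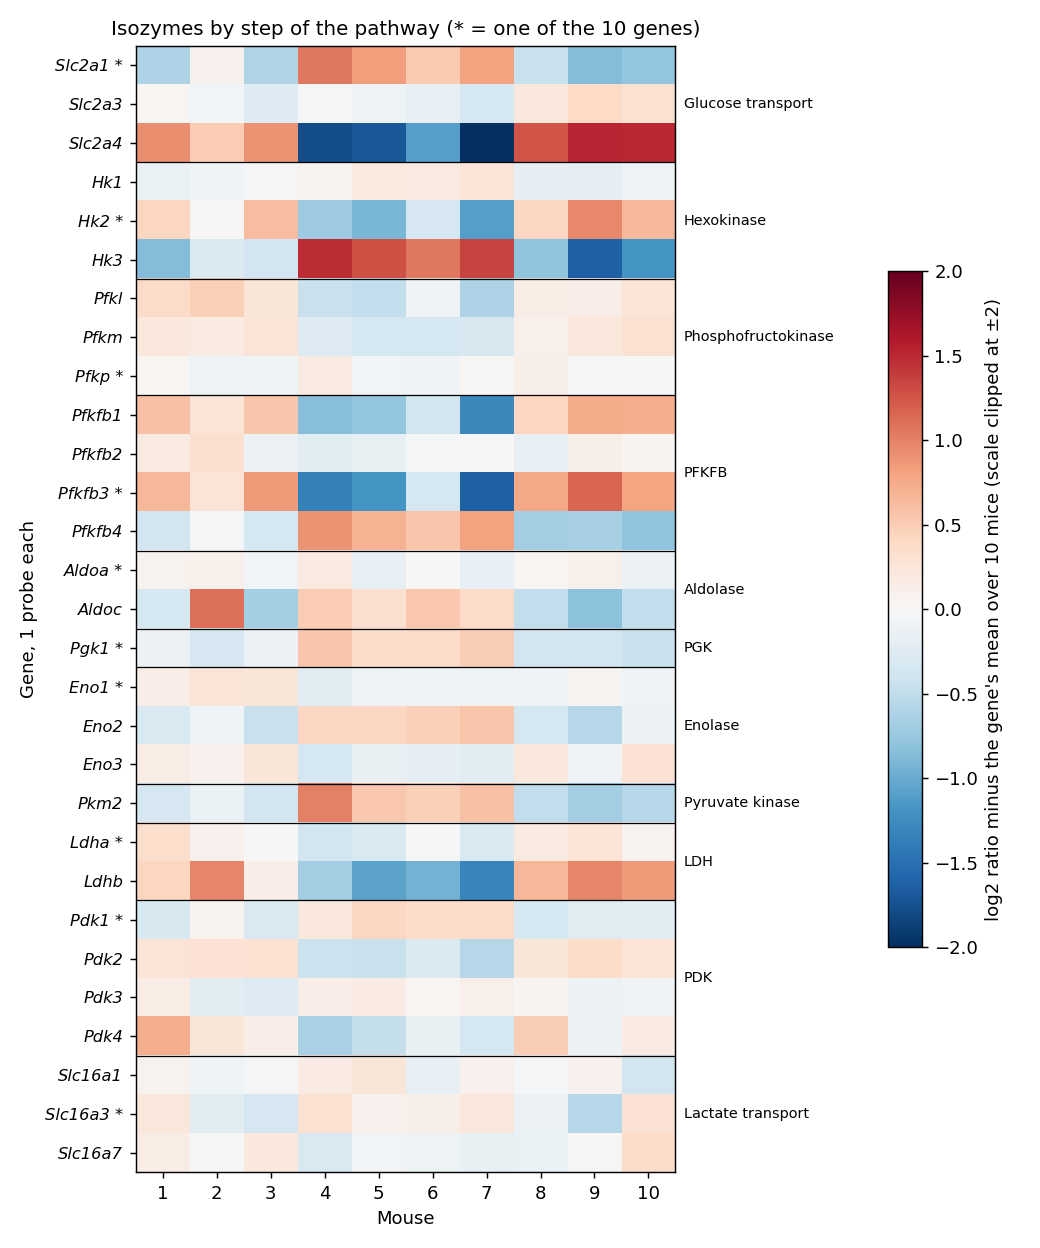
Log2 ratio of each gene minus its mean over the 10 mice (colour, red above and blue below the mean, clipped at 2) by mouse (columns) for 29 genes grouped by step (rows, 1 probe each); stars mark the 10 genes. *Slc2a1*, *Hk3*, *Pfkfb4*, *Eno2* and *Pkm2* are red in mice 4 to 7, where *Slc2a4*, *Hk2*, *Pfkfb1*, *Pfkfb3* and *Ldhb* are blue (*Hk2* overlaps under median centring).

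Aldolase, phosphoglycerate kinase and enolase belong to the lower part of the pathway. *Aldoa*, for the main aldolase outside liver and brain, was measured by 1 probe at chr7:133938816-133938875 of mm9. It ran from -0.22 to 0.12 over the mice, with the highest value in mouse 4 and the lowest in mice 5 and 7, and a mean of -0.06 ± 0.12 (SD, n = 10). It did not pass the test (adjusted p = 0.603), and its SD was at percentile 18.7 of all expressed probes. The brain form *Aldoc* was highest in mouse 2 (0.98), and the other 9 mice lay between -0.95 and 0.41.

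*Pgk1*, for phosphoglycerate kinase 1, gave 0.14, -0.09, 0.14, 0.80, 0.62, 0.63, 0.75, -0.13, -0.13 and -0.20 in mice 1 to 10. Mice 4 to 7 were the 4 highest and the other 6 lay within 0.34 of each other. The mean was 0.25 ± 0.40 (SD, n = 10), the highest mouse was 2.00-fold over the lowest, and the SD of log2 Cy5 was 5.16 times that of Cy3 (adjusted p = 5.28e-06). The differences within slides 2 and 4 were 0.66 and 0.88. The annotation of the array puts this probe at chr3:57906830-57906894 of mm9, while the RefSeq table puts *Pgk1* on chromosome X and lists a *Pgk1* pseudogene on chromosome 3. RNA of a copy and of *Pgk1* itself cannot be told apart with this probe.

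*Eno1*, for alpha-enolase, was measured at chr4:149622928-149622987 of mm9. Mice 1 to 10 gave 0.33, 0.45, 0.43, -0.03, 0.09, 0.10, 0.09, 0.10, 0.24 and 0.12, so the highest were mice 1, 2 and 3, and mice 4 to 7 lay just at or under mouse 8. The mean was 0.19 ± 0.16 (SD, n = 10) and the variance did not pass the test (adjusted p = 0.0862). The order of mice 6 and 8 is within the spread of spots, and mice 4 to 7 overlap the others under median centring, without background subtraction, in the scanner's log ratio and in the deposited values. RefSeq also lists *Eno1b*, a near copy without introns, from which the probe may draw. Of the other enolases the neuronal form *Eno2* was higher in mice 4 to 7 (0.53 to 0.67 against -0.46 to 0.02) and the muscle form *Eno3* lower (-0.45 to -0.26 against -0.18 to 0.18, overlapping under median centring).

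Pyruvate made by glycolysis is turned into lactate by lactate dehydrogenase, whose A chain is encoded by *Ldha*. Its 3 probes disagreed. The brightest, at chr7:54110937-54110996 of mm9 and farthest along the transcript, gave 0.16, -0.11, -0.20, -0.56, -0.51, -0.19, -0.50, -0.02, 0.07 and -0.13 in mice 1 to 10. Mice 4, 5 and 7 were lowest, and mouse 6 lay among the others. Its SD was 0.25 and its variance passed the test (adjusted p = 0.00155). The probe at chr7:54103010-54103069 was highest in mice 1 (0.34) and 3 (0.30) and lay between -0.25 and 0.02 in the other 8, and did not pass (adjusted p = 0.13). The probe at chr7:54107294-54107353 stayed between -0.18 and 0.13 and did not pass (adjusted p = 0.14). So the lower value of *Ldha* in mice 4, 5 and 7 was seen by 1 probe of 3.

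The 2 *Ldha* probes that did not pass are shown, as they start at bases 351 and 970 of the same transcript on which the third starts at base 1755.
Ldha probe A_55_P2141876: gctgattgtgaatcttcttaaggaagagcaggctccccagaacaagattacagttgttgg
Ldha probe A_55_P2141878: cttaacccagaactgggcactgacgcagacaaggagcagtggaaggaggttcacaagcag

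The B chain *Ldhb*, which favours the reaction back to pyruvate, was far lower in mice 4 to 7 (-1.70 to -1.08) than in the others (-0.25 to 0.60), with an SD of 0.92 (adjusted p = 1.16e-07). *Pkm2*, the array's name for pyruvate kinase M, the enzyme just before this step, was higher in mice 4 to 7 (0.54 to 1.08 against -0.62 to -0.06, adjusted p = 2.78e-05).

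*Pdk1* encodes a kinase that switches off pyruvate dehydrogenase and so diverts pyruvate from the mitochondria. Its probe, at chr2:71739688-71739747 of mm9, gave -0.26, 0.13, -0.24, 0.27, 0.48, 0.43, 0.45, -0.29, -0.18 and -0.15 in mice 1 to 10. Mice 4 to 7 were the 4 highest, followed by mouse 2, as for *Slc2a1*. The mean was 0.06 ± 0.32 (SD, n = 10), the ratio of the SDs 4.43 (adjusted p = 0.00108), and the differences within slides 2 and 4 were 0.50 and 0.74. Without mice 4 to 7 it did not pass (adjusted p = 0.132).

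The other kinases of this family did not follow *Pdk1*. *Pdk2* was at -0.51 to -0.23 in mice 4 to 7 and at 0.31 to 0.43 in the others, and *Pdk4*, a gene induced by fasting, at -1.10 to -0.60 against -0.58 to 0.27. Both overlapped under median centring, and *Pdk4* also in the deposited values. *Pdk3* overlapped and did not pass (adjusted p = 0.411). *Pdha1*, for the subunit that these kinases phosphorylate, was lower in mice 4 to 7 (-0.49 to -0.13 against 0.04 to 0.51), with overlap under median centring and in the deposited values.

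*Slc16a3* encodes MCT4, which exports lactate. Its brighter probe, at chr11:120820030-120820089 of mm9, gave 0.78, 0.34, 0.22, 0.86, 0.65, 0.67, 0.79, 0.45, -0.01 and 0.85 in mice 1 to 10. Mice 1, 4, 7 and 10 were highest and mouse 9 lowest. Mice 4 to 7 (0.65 to 0.86) lay in the upper part of the range but overlapped the others (-0.01 to 0.85). The mean, 0.56 ± 0.30 (SD, n = 10), was the highest of the 10 genes, and the SD ratio was 4.88 (adjusted p = 1.78e-04). It also passed without mice 4 to 7 (adjusted p = 0.0289). A second probe gave a mean of 0.52 ± 0.33, with mice 4 and 7 (0.85 each) highest and mouse 9 (-0.04) lowest, but it shares 53 of its 60 bases with the first and is no independent measurement. The related transporters *Slc16a1* (MCT1; adjusted p = 0.166) and *Slc16a7* (MCT2; SD 0.19, adjusted p = 0.0246) both overlapped.

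**Figure D3:**
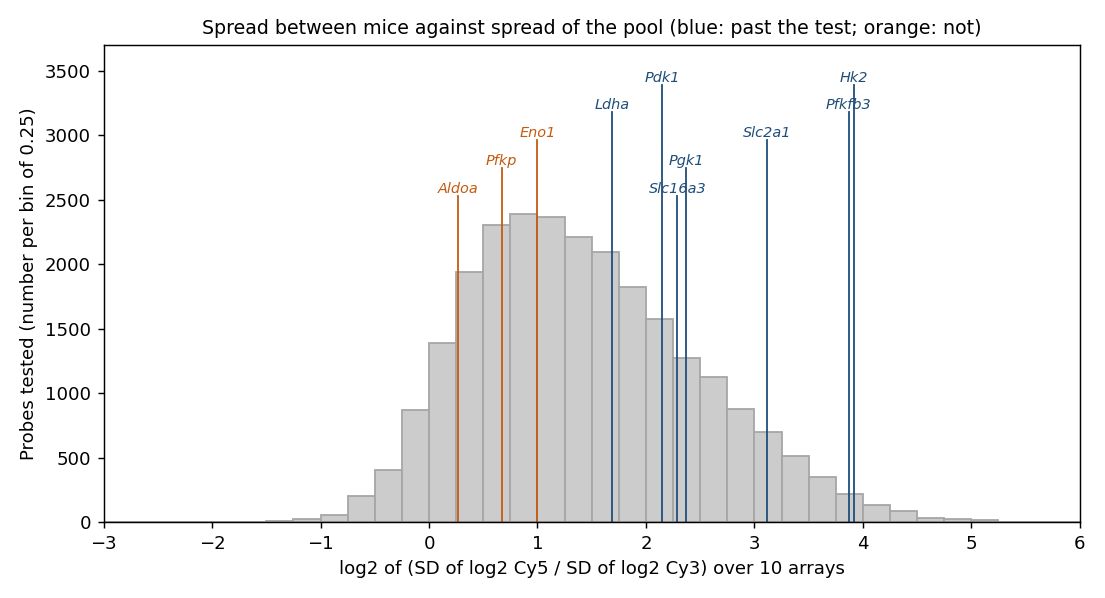
Number of probes (vertical axis) by the log2 of the SD of log2 Cy5 over the SD of log2 Cy3 (horizontal axis) for the 25044 probes tested; lines mark the 10 genes, blue where the test was passed and orange where not. *Hk2* and *Pfkfb3* lie at 3.92 and 3.87, far above the median of 1.31, and *Aldoa* at 0.27.

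By the size of the spread the 10 genes thus ran from *Pfkp* (SD 0.09) and *Aldoa* (0.12) to *Hk2* (0.73), *Slc2a1* (0.75) and *Pfkfb3* (1.05). The median SD was 0.31 for the 10 genes and 0.18 for all expressed probes, and the median spread of repeated spots of 1 probe was 0.10. The SDs of *Pfkp* and *Aldoa* were thus close to that of repeated spots. The SDs of *Hk2* and *Slc2a1* were neighbours, with no test between them. Mean log2 ratios carry any dye bias of the probe, since the dyes were not swapped, and were not tested against 0. They also depend on the scaling, since under median centring the median of all expressed probes moved from 0.00 to 0.32, and the number of the 10 genes with a mean above 0 went from 5 to 10.

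The rest of the pathway was split in the same way. Of 32 further genes of glucose transport, glycolysis and pyruvate use, 29 were on the array by that name and 26 were expressed. By the brightest probe of each, 22 passed the variance test and 4 did not (*Hk1*, *Pfkfb2*, *Pdk3* and *Slc16a1*), against 59.7% of all probes. In mice 4 to 7, 7 were higher, 11 lower and 8 overlapped, where 17.9% of all probes were higher and 21.3% lower. Of the 5 genes with more than 1 expressed probe, the probes of *Hk1* and *Gapdh* differed in the variance call and those of *Tpi1* and *Gapdh* in place, and none had probes on opposite sides. The higher ones were *Hk1*, *Hk3*, *Gpi1*, *Pfkfb4*, *Pgam1*, *Eno2* and *Pkm2*, and the lower ones *Slc2a4*, *Pfkl*, *Pfkm*, *Pfkfb1*, *Tpi1*, *Eno3*, *Ldhb*, *Pdk2*, *Pdk4*, *Pdha1* and *Bpgm*. The 7 higher genes kept their place under all 4 other scalings, but under median centring only 4 were lower, *Slc2a2*, *Slc2a4*, *Pfkfb1* and *Ldhb*. *Gapdh*, often used as a reference gene, overlapped by its brightest probe (0.05 to 0.46 against 0.02 to 0.22; higher in the deposited values) yet passed the variance test (adjusted p = 0.0233). Of its 8 expressed probes 3 were higher in mice 4 to 7 and 5 overlapped, and 6 passed the variance test. Of 5 germ cell forms only *Gapdhs* was expressed, and it did not pass (adjusted p = 0.138).

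Known HIF targets outside glycolysis did not share 1 direction either. Of 18 such genes, regulators of HIF and HIF subunits, 17 were expressed (*Epo* was not), 15 passed the variance test by their brightest probe, against 59.7% of all probes, and *Egln1* and *Hif1a* did not. In mice 4 to 7, 3 were higher, 7 lower and 7 overlapped, where 17.9% of all probes were higher and 21.3% lower. Of the 8 genes with more than 1 expressed probe, those of *P4ha1*, *Lox* and *Tfrc* differed in the variance call and those of *P4ha1* and *Epas1* in place. The heme-degrading enzyme gene *Hmox1* had the widest spread (0.72 to 1.47 in mice 4 to 7, -1.74 to -0.92 in the others, SD 1.26), and *Car9*, for a carbonic anhydrase, and *P4ha1*, for a collagen prolyl hydroxylase, were higher too. The mitophagy receptor gene *Bnip3* (-1.72 to -0.75 against 0.16 to 0.58, SD 0.97) and the growth factor gene *Vegfa* (-1.02 to -0.60 against -0.09 to 0.67, SD 0.65) were lower, as were *Adm*, *Ndrg1*, *P4ha2*, *Ddit4* and *Epas1*. Under median centring *Adm* alone of these 7 was lower without overlap. *Epas1* encodes HIF-2 alpha and ran from -1.25 to -0.92 against -0.15 to 0.23, while *Hif1a* overlapped (-0.54 to -0.17 against -0.32 to -0.07).

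Promoters are shown for 4 genes with opposed patterns, *Slc2a1* and *Pgk1* (higher in mice 4 to 7) and *Hk2* and *Pfkfb3* (lower, *Hk2* with overlap under median centring). The *Pgk1* promoter is that of the gene on chromosome X, while its probe may measure a copy as well. *Pfkfb3* has a second window with 1 match, which is not printed. The core of the HIF binding motif was searched as ACGTG and GCGTG on both strands in RefSeq windows of 300 bases, from 250 bases before to 50 after a start site (build GRCm38.p6). All 10 genes had a window, and 15 of their 17 windows held at least 1 match, against 43.8% of all 32851 windows. The genes were chosen as known HIF targets, so a larger share was likely beforehand and is no test. Windows of 1 gene can also overlap and count the same match again. Windows 1 and 2 of *Aldoa* share their match, and windows 2 and 3 of *Eno1* hold the same 2 matches. CACGTG, a motif that other factors bind as well, counts as 2 overlapping matches. Only the 250 bases before the start are printed, 5′ to 3′ on the strand of the gene, with matches in capitals.
Slc2a1, chr4:119108495-119108744, plus strand: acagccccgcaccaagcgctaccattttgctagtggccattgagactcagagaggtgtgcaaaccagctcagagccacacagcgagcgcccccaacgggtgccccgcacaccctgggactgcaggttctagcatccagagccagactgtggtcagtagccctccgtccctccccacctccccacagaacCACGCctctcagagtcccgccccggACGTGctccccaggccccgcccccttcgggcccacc
Pgk1, chrX:106186850-106187099, plus strand: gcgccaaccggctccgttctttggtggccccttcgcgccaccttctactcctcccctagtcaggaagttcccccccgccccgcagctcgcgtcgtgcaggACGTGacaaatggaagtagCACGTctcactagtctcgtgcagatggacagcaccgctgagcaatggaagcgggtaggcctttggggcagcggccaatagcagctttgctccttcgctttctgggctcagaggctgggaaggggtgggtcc
Hk2, chr6:82774455-82774704, minus strand: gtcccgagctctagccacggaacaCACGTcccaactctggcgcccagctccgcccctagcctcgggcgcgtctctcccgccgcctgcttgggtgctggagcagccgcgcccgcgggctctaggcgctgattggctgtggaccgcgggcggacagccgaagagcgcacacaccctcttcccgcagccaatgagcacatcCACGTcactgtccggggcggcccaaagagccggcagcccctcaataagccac
Pfkfb3, chr2:11502091-11502340, minus strand: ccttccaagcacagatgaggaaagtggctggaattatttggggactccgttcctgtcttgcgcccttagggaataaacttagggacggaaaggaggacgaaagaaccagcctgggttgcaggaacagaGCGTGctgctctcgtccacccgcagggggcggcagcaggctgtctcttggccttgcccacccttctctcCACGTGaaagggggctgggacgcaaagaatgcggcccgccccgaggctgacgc

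Each of these windows held a match, whether the gene was high or low in mice 4 to 7. *Aldoa*, which hardly varied, held the same 1 match in 2 overlapping windows of its 3 and none in the third. A match is a run of letters and was not measured as a bound site here.

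**Figure D4:**
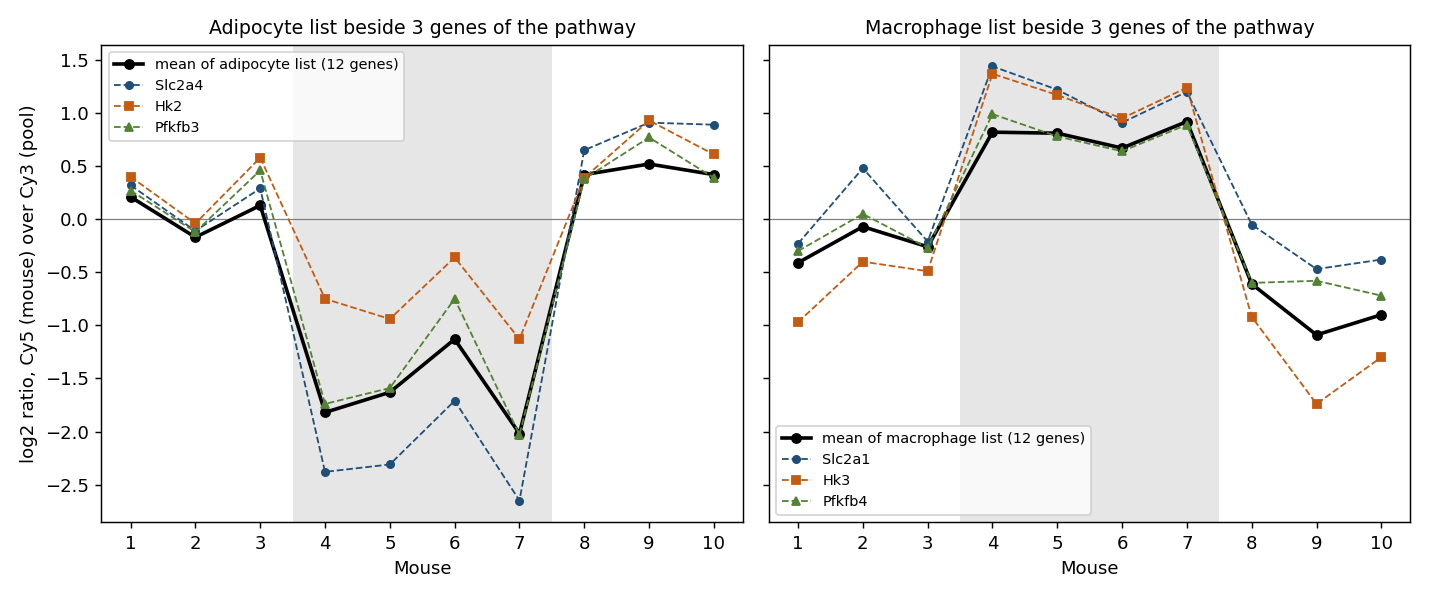
Log2 ratio over the Cy3 pool (vertical axis) in mice 1 to 10 (horizontal axis) for the mean of 12 adipocyte genes beside *Slc2a4*, *Hk2* and *Pfkfb3* (left) and the mean of 12 macrophage genes beside *Slc2a1*, *Hk3* and *Pfkfb4* (right); mice 4 to 7 are shaded. In mice 4 to 7 the left curves lie low (*Hk2* with overlap under median centring) and the right curves high, and the adipocyte mean lay between -2.02 and -1.13 and the macrophage mean between 0.67 and 0.92.

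The spread within mice 4 to 7 can be set beside the cell lists as well. *Slc2a4*, *Hk2* and *Pfkfb3* had their lowest value in mouse 7, which also had the lowest adipocyte mean (-2.02), and within mice 4 to 7 all 3 were least low in mouse 6, which had the highest adipocyte mean of the 4 (-1.13). *Slc2a1*, *Hk3* and *Pfkfb4* were lowest of these 4 in mouse 6, where the macrophage mean was lowest (0.67), and highest in mouse 4, while the macrophage mean was highest in mouse 7 (0.92). *Pgk1* and *Pdk1*, also higher in mice 4 to 7, had other orders. *Pgk1* was lowest of these 4 in mouse 5 (0.62) and *Pdk1* in mouse 4 (0.27). The genes set beside the lists were picked after their values were seen. Mouse 6 also had the lowest score of these 4 on the first component (0.281) and mouse 7 the highest (0.448). Because the mice fall apart on the first component, no correlation over all 10 was computed.

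Over the 6 mice that lie together (1, 2, 3, 8, 9 and 10), 45 pairs of the 10 genes were compared. No pair passed after adjustment by Pearson's r or by Spearman's rho in exact permutation tests, and 3 had an unadjusted p under 0.05. With 720 orders of 6 mice, the smallest possible p adjusted over 45 pairs is above 0.05 for a pair that stands alone. No single pair could thus have passed, however strong, and no conclusion is drawn from the lack of calls. For *Slc2a1* and *Hk2* r was -0.943 (exact permutation p = 0.00417, adjusted p = 0.188) and rho -0.943 (exact p = 0.0167, adjusted p = 0.75). With the 2 mice that lay farthest from the median of *Slc2a1* left out, r came to -0.746. For *Hk2* and *Pfkfb3* r was 0.978 (exact permutation p = 0.00833) and 0.670 with the 2 outermost mice left out. For *Slc2a1* and *Pfkfb3* r was -0.900 (exact permutation p = 0.0167) and -0.00528 with them left out, so it rests on those 2 mice. Of the 20 relations of the 10 genes with the adipocyte and macrophage means, none passed (smallest adjusted p = 0.119, exact permutation) and 7 had an unadjusted p under 0.05.

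For the 3 genes with the widest spread, the genes with the most similar pattern were sought among 19692 named, expressed probes by the root mean square difference of mean-centred log2 ratios over the 10 mice. For *Pfkfb3* they were *Slc1a5* (a difference of 0.115), *Fzd4* (0.123) and *Lmo1* (0.125). For *Slc2a1* they were *Bmper* (0.0884), *Fkbp1b* (0.101) and *Tmem165* (0.109), and for *Hk2* *A530016L24Rik* (0.0996), *Pkp2* (0.115) and *Phldb1* (0.127). *Slc1a5* encodes a glutamine transporter and ran from -2.06 to -1.11 in mice 4 to 7, close to the -2.03 to -0.75 of *Pfkfb3*. All of these genes part mice 4 to 7 from the others, as the first component does (75.1% of the variance). Among all expressed probes 21.3% were lower and 17.9% higher in this way, so close neighbours were likely beforehand, and a link between these genes was not tested.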

How the data were processed

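RNA of the epididymal fat of 10 mice of 1 group was measured on 10 2-colour Agilent arrays. The intensity values in the scanner files, mean and median signal of each spot and its local background in both dyes, were deposited by the authors as their scanner software (Agilent Feature Extraction 10.7.3.1, by the submitters' processing notes) wrote them, without normalization. Per the file headers, that software also subtracted background, balanced the dyes and wrote a log10 ratio (red over green) for each spot. A further table deposited by the authors has normalized log2 values of 30733 spots, a unit read from the values themselves. On each array its values followed log2 of the median Cy5 signal (r of 0.994 to 0.999), so they are levels of Cy5 and no ratios to the pool. How that table was normalized is not given in the sources used here.

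Mean signals were corrected with normexp (offset 50) on the local median background and normalized by loess within arrays, with limma 3.58.1 in R 4.3.3, and dye channels by Aquantile between arrays. Control spots and spots with outlier flags were left out, and spots of 1 probe were averaged (59305 spots, 55681 probes). Expressed probes were those whose Cy5 signal the software marked as well above background on 5 or more arrays (27804 probes). A gene is given by its expressed probe with the highest mean signal. Other probes are given for the 10 genes, and for list genes where they changed a statement. Levels of different probes were not compared.

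The variance of log2 Cy5 was compared with that of log2 Cy3 by the Pitman-Morgan test, the slide by limma's moderated F test, both with Benjamini-Hochberg adjustment over all probes at a threshold of 0.05, and both were checked on simulated data. Relations over mice used exact permutation tests (720 orders of 6 mice). Python 3.11.15 with scipy 1.17.1 was used for these. The number of arrays limits the precision, and the labels name each mouse as a separate sample. Alternatives were other background corrections, scalings and filters, the slide as a block, and leaving out mice. The 10 genes and the gene lists were chosen with earlier results of these data known. Genes named are the 10 genes with all probes, their isozymes, the genes with the 3 largest SDs of each list, and the 3 genes most like each of the 3 with the widest spread. Others were named after their values were seen. *Adgre1* was found as *Emr1*, and *Pkm*, *Mpc1* and *Mpc2* were not found by these names. Of the other cell lists, skeletal muscle had 2 of 8 genes expressed, red blood cells 4 of 6, neutrophils 5 of 8, sperm 3 of 7, epididymis 2 of 8 and lymphocytes 5 of 7 of those on the array. Probe positions are those of the array annotation (mm9), and exon or UTR annotation of that build was not used here. Promoters are those of RefSeq (GRCm38.p6).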

Additional observations from a re-analysis of the deposited data

Results flagged for a closer look

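Dixon's test for a sample far from the others was applied to 59 probes of the 10 genes and the 2 gene lists, and 2 were marked, where chance marks about 1 in 20. *Kdm3a*, for a histone demethylase that is a HIF target, was highest in mouse 2, at 0.36 against -0.07 to 0.14 in the other 9 mice, and the gap to the next mouse was 0.527 of the whole range on the log2 scale. *Egln3*, for the HIF prolyl hydroxylase PHD3, was highest in mouse 1, at 0.59 against -0.22 to 0.15 in the others, with a gap of 0.541 of the range. A second *Egln3* probe, well above background in Cy3 on 1 array, had -0.14 in mouse 1. No probe of the 10 genes was marked.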

How the results depend on the processing

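Of 25044 probes, 14961 (59.7%) had more variable Cy5 than Cy3, and 7 of the 10 genes did. These counts stayed within 1.5 times under the other background correction, median centring, the scanner's processed signals, both filters and the slide as a block. The counts of probes and genes were 4674 (18.7%) and 4 when arrays were not normalized to each other. Without mice 4 to 7, chosen after seeing the data, they were 3546 (14.2%) and 4. Leaving out each mouse in turn gave 13481 to 14417 probes (53.8% to 57.6%) and 7 genes each time. The log2 ratio of the SDs changed sign for *Aldoa* (-0.07) and *Eno1* (-0.53) without normalization between arrays, for *Eno1* under median centring (-0.54), and for *Aldoa* when mice were left out in turn (-0.13 to 0.53, lowest without mouse 4). These genes did not pass the test in any of these cases, and the cause was not tested. *Ldha* did not pass under median centring or without normalization between arrays, where *Pdk1* and *Slc16a3* did not pass either. *Pfkp* passed with the scanner's processed signals and with the slide as a block. Under median centring the means of 7 of the 10 genes moved by over 1 SD (*Eno1* from 0.19 to 0.90, *Aldoa* from -0.06 to 0.72). The slide passed for 0 probes under every alternative. As mice of both sides shared slides, no conclusion on the slide is drawn from this. Relations of the genes with the cell lists gave 1 call under median centring and 0 otherwise. Relations between the genes gave 0, where no single pair could have passed alone. Leaving out mice was not run for relations, as fewer than 6 would remain. No paired analysis was possible because there is 1 group. Signal over background limits dim probes, which the 15 probes of the 10 genes were not.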

Other observations

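Mouse 2 stood highest of the 10 mice for several genes of the HIF target and glycolysis lists, a pattern noted after the values were seen and not tested. It had 0.98 for *Aldoc*, 0.67 for *Ndrg1*, 0.74 for *Ankrd37* and 0.36 for *Kdm3a*, and it was also the highest of the 6 mice outside mice 4 to 7 for *Slc2a1* (0.48), *Pdk1* (0.13) and *Car9* (-0.21). It was the lowest of these 6 for *Hk2* (-0.04) and *Slc2a4* (-0.11), and its adipocyte mean (-0.17) and macrophage mean (-0.07) were the lowest and the highest of these 6. *Tfrc*, for the transferrin receptor that brings iron into cells and whose transcript is kept when iron is low, had 2 expressed probes that differed. The brighter one lay between 0.20 and 1.04 in the 10 mice, and the other between -0.18 and 0.44.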
